A study of Arabidopsis thaliana with 2 samples.

Results

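The xylem and fibre NAC switches examined here are 10 genes of Arabidopsis thaliana chosen by their locus identifiers: the vessel genes VND1 to VND7, the fibre genes SND1 and NST1, and the repressor gene XND1. They are 10 of 33602 loci counted, and 8 of the 10 had at least 10 counts in both libraries. The libraries come from explants of first-pair rosette leaves of Col-0 plants carrying pER8:3xFlag-NAC1, at 12 days after sowing, cultured on B5 medium. In the pER8 vector estradiol turns on the inserted gene, here a Flag-tagged copy of the NAC transcription factor gene NAC1. The estradiol library had estradiol dissolved in DMSO and the control library DMSO alone, and both carry the transgene. The design text states the aim as finding genes that NAC1 up-regulates. Each group holds 1 library, so no test was possible and the differences below are between 2 libraries, not replicated effects of the treatment. No library of plants without the transgene was analysed here, so an effect of estradiol itself and one of NAC1 cannot be told apart. The sources used here give neither the duration of treatment nor the number of explants per library.

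NAC switches of this kind turn a cell towards xylem. VND proteins start vessel differentiation, in which the cell lays down a patterned secondary wall of cellulose, xylan and lignin and then dies and empties. SND1 and NST1 do the same for the walls of fibres, and NST1 also acts in the anther endothecium. Below the switches stand MYB factors such as MYB46 and MYB83, the wall synthesis enzymes, and the proteases and nucleases that clear the dying cell. XND1 and VNI2 hold the programme back.

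NAC1 (AT1G56010) went from 466 control counts to 28380 estradiol counts, a ratio of estradiol to control of 49.4 (95% counting interval 45.1 to 54.3), the direction that the treatment labels give. The sample titles, DM for the library labelled estradiol and ER for the control, could be read the other way, and groups follow the treatment label. These counts do not separate the transgene from the native gene, and the locus shares sequence positions with other annotated genes. The control library held 39799127 gene counts and the estradiol library 48350705. A ratio here is between counts scaled to library size, its interval covers counting error only, and a gene was called higher or lower where the whole interval lay above 2 or below 0.5.

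None of the 8 measured xylem NAC genes was called in either direction. Among all 20274 measured genes (10 counts or more in either library) the same rule called 5.38% higher and 4.64% lower. Among the 1649 genes with 47 to 150 counts over both libraries, the range of these 8 genes, it called 8.37% higher and 9.04% lower. Ratios of the vessel genes ran from 0.287 to 1.08, and the fibre genes were at the floor of detection in both libraries. All 10 genes were far below the induced NAC1, which had 427 TPM (transcripts per 1000000, from counts corrected for transcript length) in the estradiol library. In the control NAC1 had 8.45 TPM, and VND1 to VND7 summed to 8.35 TPM.

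VND3 (AT5G66300) had the highest level of the 10 genes in both libraries. It had 76 control and 74 estradiol counts, a level of 2.26 TPM (1.78 to 2.83) and 1.83 TPM (1.44 to 2.30). VND4 (AT1G12260) had 80 and 65 counts, or 1.71 TPM (1.35 to 2.12) and 1.15 TPM (0.888 to 1.47). The intervals of these vessel genes overlapped in both libraries, though only narrowly with estradiol. VND5 (AT1G62700) had 51 and 36 counts, or 1.10 TPM (0.821 to 1.45) and 0.646 TPM (0.452 to 0.894).

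VND1 (AT2G18060) and VND2 (AT4G36160) are close relatives, with transcripts 80.3% identical over 957 aligned bases. VND1 had 32 control and 20 estradiol counts, a level of 0.797 TPM (0.545 to 1.13) and 0.414 TPM (0.253 to 0.639). VND2 had 48 and 17 counts, or 1.16 TPM (0.854 to 1.53) and 0.340 TPM (0.198 to 0.545). By level VND2 was number 4 of the 10 genes in the control and number 8 with estradiol, and its intervals in the libraries did not overlap. The same was found, in either direction, for 63.3% of measured genes and for 39.6% of genes with 47 to 150 counts over both libraries.

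VND6 and VND7 are the members best known as switches, for metaxylem and protoxylem vessels respectively. VND6 (AT5G62380) had 22 control and 25 estradiol counts, a level of 0.656 TPM (0.411 to 0.993) and 0.619 TPM (0.401 to 0.914). VND7 (AT1G71930) had 24 and 32 counts, or 0.671 TPM (0.430 to 0.999) and 0.743 TPM (0.508 to 1.05). Their intervals overlapped each other and overlapped between libraries, so no order among the pair can be read.

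SND1 (AT1G32770), also called NST3, had 0 counts in both libraries, which allows up to 3 counts, or 0.0759 CPM (counts per 1000000) for the control and 0.0616 CPM for estradiol. That floor is one-sided; the two-sided exact interval of 0 counts, drawn as a bar in the plot of levels, reaches 0.110 TPM and 0.0914 TPM. NST1 (AT2G46770) had 1 count in each library. No fold is given for either gene. NST2 (AT3G61910), the closest relative of NST1 and its partner in the endothecium, had 2 and 0 counts. At this depth the fibre and endothecium switches were therefore not detectable above the floor in either condition. Of all loci, 29.0% had 0 counts in both libraries.

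XND1 (AT5G64530), whose overexpression is known to block vessel formation, had 66 counts in each library. That is 1.97 TPM (1.53 to 2.51) for the control and 1.64 TPM (1.27 to 2.08) for estradiol, the second highest of the 10 genes in both. The repressor gene was more abundant than VND6 and VND7, with intervals that did not overlap theirs in either library.

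**Figure D1:**
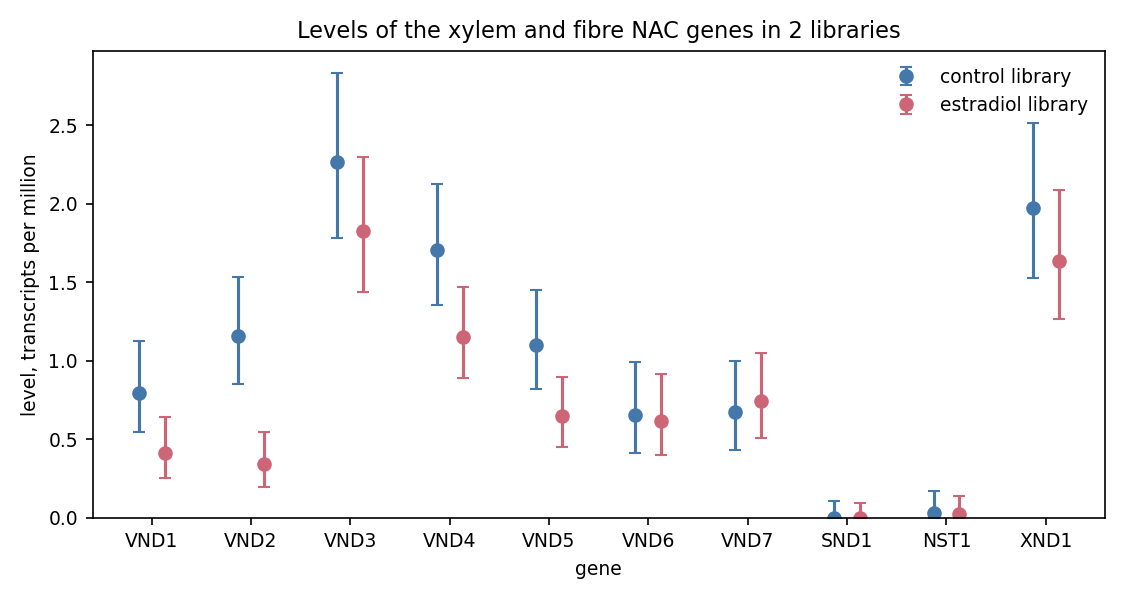
Level of each gene in TPM (y axis) in the control and the estradiol library (1 library each); points are the measured levels and bars exact 95% Poisson intervals, which cover counting error only. VND3 and XND1 are highest in both libraries, SND1 and NST1 sit at or near 0. The bars of VND2 do not overlap between libraries, as for 39.6% of genes of similar counts.

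By level these genes were in the lower part of the transcriptome. The median measured gene stood at 18.1 TPM in the control and 18.9 TPM with estradiol. VND3 was at percentile 16.9 and 15.1 of measured genes, and VND6 at percentile 7.79 and 7.22. With estradiol VND1 and VND2 stood lower than VND6, at percentiles 4.84 and 3.96. Among 113 genes with a NAC product in the annotation, VND3 ranked 45 in the control and 54 with estradiol, and VND7 ranked 63 and 64. The median level of the 113 genes was itself low, 1.10 TPM in the control and 1.53 TPM with estradiol. The 10 genes took 0.696% of all NAC-gene counts in the control and 0.308% with estradiol. With NAC1 left out of the total these shares were 0.701% and 0.416%. Vessel cells are a small part of a leaf, and in bulk RNA fewer cells of a type and less RNA per cell cannot be told apart.

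Between the libraries, VND2 had the ratio farthest from 1, at 0.287 (0.155 to 0.509). It missed the call by 1 count, since at 48 control counts the rule calls a gene lower at 16 or fewer estradiol counts and VND2 had 17. With a threshold of 1.5-fold it would be called lower, as 9.91% of measured genes would. VND2 overlaps the annotated locus AT4G36170, and the strand setting of the counting is not known, so its counts are uncertain.

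VND1 had a ratio of 0.507 (0.275 to 0.914), VND5 0.573 (0.363 to 0.895) and VND4 0.659 (0.468 to 0.926). With VND2, these are 4 of 8 genes whose whole counting interval lay below 1, and none had an interval wholly above 1. An interval wholly below 1 was also found for 35.3% of all measured genes and for 33.5% of genes in the same range of counts. VND3, at 0.790 (0.566 to 1.10), and XND1, at 0.811 (0.568 to 1.16), had intervals that include 1. So did VND6, at 0.922 (0.499 to 1.72), and VND7, at 1.08 (0.618 to 1.92), the one measured member with a ratio above 1. VND5 and VND6 also overlap another annotated locus each.

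The interval of VND2 lay wholly below those of VND7, VND3 and XND1, genes picked for this comparison after their values were seen. The other measured members had intervals that overlapped that of VND2. The median log2 ratio of the 8 genes was -0.47, against 0.01 for all measured genes and -0.25 for genes in the same range of counts. The log2 ratio was below 0 in 7 of the 8 genes, and in 61.7% of genes in that range.

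**Figure D2:**
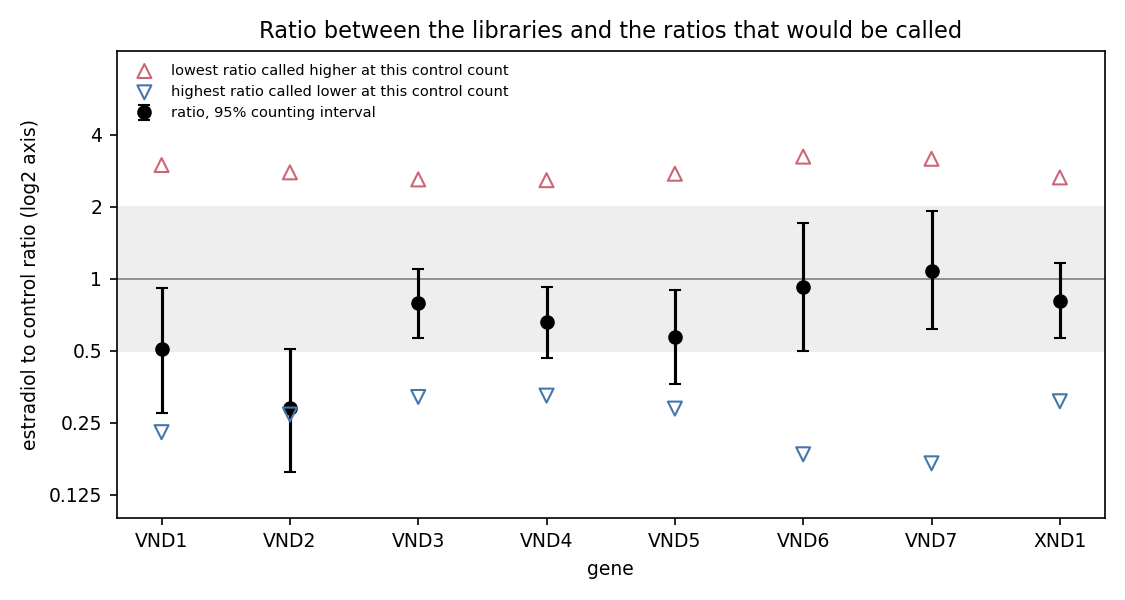
Ratio of the estradiol to the control library for the 8 measured genes (log2 axis, 1 library per group); points with bars are ratios with exact 95% counting intervals, the grey band spans 0.5 to 2, and open triangles mark the ratios at which a gene with this control count would be called. Every point lies between its triangles, and VND2 at 0.287 is just above its lower triangle at 0.270.

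Counts of this size set wide limits. VND4, with the most control counts, would have been called at a ratio of 2.59 or more, or at 0.325 or less. VND6, with the fewest, needed 3.25 or more, or 0.184 or less. A doubling of any of these vessel genes would not have been called.

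Summed over VND1 to VND7, there were 333 control and 269 estradiol counts, or 8.43 and 5.52 CPM. The ratio of the sums was 0.656 (0.556 to 0.772). Without VND2 it was 0.718 (0.603 to 0.853), and without VND2, VND5 and VND6, which overlap other loci, 0.731 (0.598 to 0.893). VND2 took 14.4% of the VND counts in the control (exact binomial interval 10.8 to 18.7) and 6.32% with estradiol (3.72 to 9.93). VND7 took 7.21% (4.67 to 10.5) and 11.9% (8.28 to 16.4), and VND4 took 24.0% and 24.2%. The interval of the share did not overlap between libraries for VND2, and it did for VND4 and VND7. These sums and shares reuse the counts given above for each gene, so they are not separate findings. Among single measured genes, 35.3% had an interval of the ratio wholly below 1.

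Among related NAC genes outside the 10, VNI2 (AT5G13180), whose protein binds VND7 and represses its targets, was called higher. VNI2 went from 1696 to 5161 counts, with a ratio of 2.47 (2.34 to 2.61). Its level of 46.8 TPM in the control and 118 TPM with estradiol was many times that of VND7 in both. VNI2 overlaps another annotated locus. If libraries of a group are assumed to vary with a coefficient of variation of 0.2, its interval was 1.41 to 4.31, no longer a call. SND2 and SND3, NAC genes known downstream of SND1 in fibres, were both detected although SND1 was not. SND2 had 65 and 69 counts (ratio 0.861, 0.605 to 1.23) and SND3 had 34 and 78 (ratio 1.86, 1.23 to 2.87), neither of them called. The root cap genes SMB, BRN1 and BRN2 had 2, 0 and 0 counts in each library.

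Genes listed as upstream of the switches or in vascular patterning had no call among 18 measured of 21, with a median log2 ratio of -0.42. The 3 with the most counts were BES1 and BIN2, a factor and a kinase of brassinosteroid signalling, and PHV, a class III HD-ZIP gene. BES1 had a ratio of 0.497 (0.481 to 0.513), BIN2 1.03 (0.995 to 1.06) and PHV 1.76 (1.66 to 1.88). At 1.5-fold PHV was called higher and 4 genes lower: BES1, TMO5 (0.464, 0.396 to 0.543), TMO5-LIKE1 and WOX4. That threshold called 9.91% of all measured genes lower. LHW, SAC51 and MYB26 were listed at 0 in both libraries. SAC51 overlaps another annotated locus, and the part of this overlap in its zeros was not tested. LHW and MYB26 overlap none in the annotation used here, and why they were at 0 was not tested.

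Of 12 measured secondary wall activators 1 was called higher and 2 lower, with a median log2 ratio of -0.65. Over all measured genes the rule called 5.38% higher and 4.64% lower. MYB46 and MYB83, direct targets of the NAC switches, had 31 and 27 counts and 18 and 6 counts, with ratios of 0.707 (0.406 to 1.22) and 0.270 (0.0879 to 0.711), and neither was called. MYB42 was lower, from 37 to 10 counts (ratio 0.219, 0.0973 to 0.450), and MYB43 from 90 to 37 (0.334, 0.221 to 0.494). MYB61 and MYB69 were listed at 0 in both libraries. Neither overlaps another locus in the annotation used here, and why they were at 0 was not tested. The zinc finger gene C3H15 (AT1G68200) was higher, from 17 to 88 counts (4.20, 2.48 to 7.53). All 3 calls were lost with the assumed variation of 0.2, and that of MYB43 also with scaling by total counts alone (0.338, 0.224 to 0.501).

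WRKY12, which represses secondary walls in pith, was the single call among 7 repressor genes. It was higher, from 5 to 45 counts, a ratio of 7.30 (2.91 to 23.6). The repressors with the most counts were not called, with WRKY15 at 0.766 (0.737 to 0.795) and MYB4 at 0.770 (0.718 to 0.826). KNAT7, a homeobox gene downstream of the switches, had 112 and 120 counts and a ratio of 0.869 (0.666 to 1.13).

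The wall synthesis genes downstream held no call. None of 5 cellulose genes, 12 xylan genes and 16 measured lignin genes was called, with median log2 ratios of -0.41, -0.14 and -0.05. The same rule called 5.38% of all measured genes higher and 4.64% lower. The secondary wall cellulose synthase genes CESA4, CESA7 and CESA8 had ratios of 0.821 (0.726 to 0.928), 0.753 (0.633 to 0.895) and 0.643 (0.524 to 0.787). CESA4 and CESA7 had 527 and 533 counts and 278 and 258 counts, more than any VND gene, and all 3 overlap other loci. CTL2, a chitinase-like gene of secondary walls, had 223 and 215 counts and a ratio of 0.782 (0.646 to 0.948). COBL4 was at 0.666 (0.507 to 0.874). All 5 cellulose genes had a log2 ratio below 0 and a counting interval wholly below 1. An interval wholly below 1 was found for 35.3% of all measured genes. In xylan synthesis PARVUS was at 0.819 (0.770 to 0.871), IRX9-L at 1.22 (1.14 to 1.30) and IRX10-L at 1.13 (1.05 to 1.21). IRX9 was at 0.668 (0.473 to 0.939) and IRX10 at 0.931 (0.812 to 1.07). FRA8, which overlaps another locus, had the highest ratio of the xylan genes, 1.78 (1.29 to 2.47). The log2 ratio was below 0 in 7 of the 12 xylan genes. In the lignin pathway CCoAOMT1 was at 1.03 (1.01 to 1.05), PAL1 at 0.869 (0.849 to 0.890) and PAL2 at 0.574 (0.559 to 0.589). FAH1 had the highest ratio of the measured lignin genes, 1.87 (1.82 to 1.93). The laccase genes LAC4, LAC17 and LAC11 were at 0.766 (0.609 to 0.963), 0.777 (0.620 to 0.973) and 1.23 (1.02 to 1.47). The log2 ratio was below 0 in 8 of the 16 lignin genes. The 4 genes that place wall bands in vessels were not called either, with KIN13A at 1.00 (0.953 to 1.05), ROPGAP3 at 0.813 (0.753 to 0.878) and MIDD1 at 0.984 (0.835 to 1.16).

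Of the 7 secondary wall and vessel lists (activators, repressors, cellulose, xylan, lignin, cell death, wall patterning), vessel cell death had the highest median log2 ratio, 0.62. In that list 2 of 6 genes were called higher. The nuclease gene BFN1 went from 97 to 1770 counts, with a ratio of 14.8 (12.1 to 18.4), and it was called with the assumed variation as well. XCP1, a cysteine protease gene of xylem, went from 247 to 731 counts, with a ratio of 2.40 (2.08 to 2.79), but its interval was 1.35 to 4.25 with the assumed variation, and it overlaps another locus. Its paralogue XCP2 had 1109 and 1120 counts and a ratio of 0.820 (0.754 to 0.891). RNS3, a ribonuclease gene named here after its value was seen, was at 2.09 (1.70 to 2.58) and not called. MC9 at 1.13 (0.902 to 1.42) and XSP1 at 1.08 (0.967 to 1.20) had intervals that include 1. The list median thus does not describe each of its 6 genes. BFN1 and RNS3 are also known from senescing leaves. Over the 7 lists together 4 of 62 measured genes were called higher, the repressor gene WRKY12 among them, and 2 lower. Their median log2 ratio was -0.18. Over all measured genes 5.38% were called higher and 4.64% lower.

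**Figure D3:**
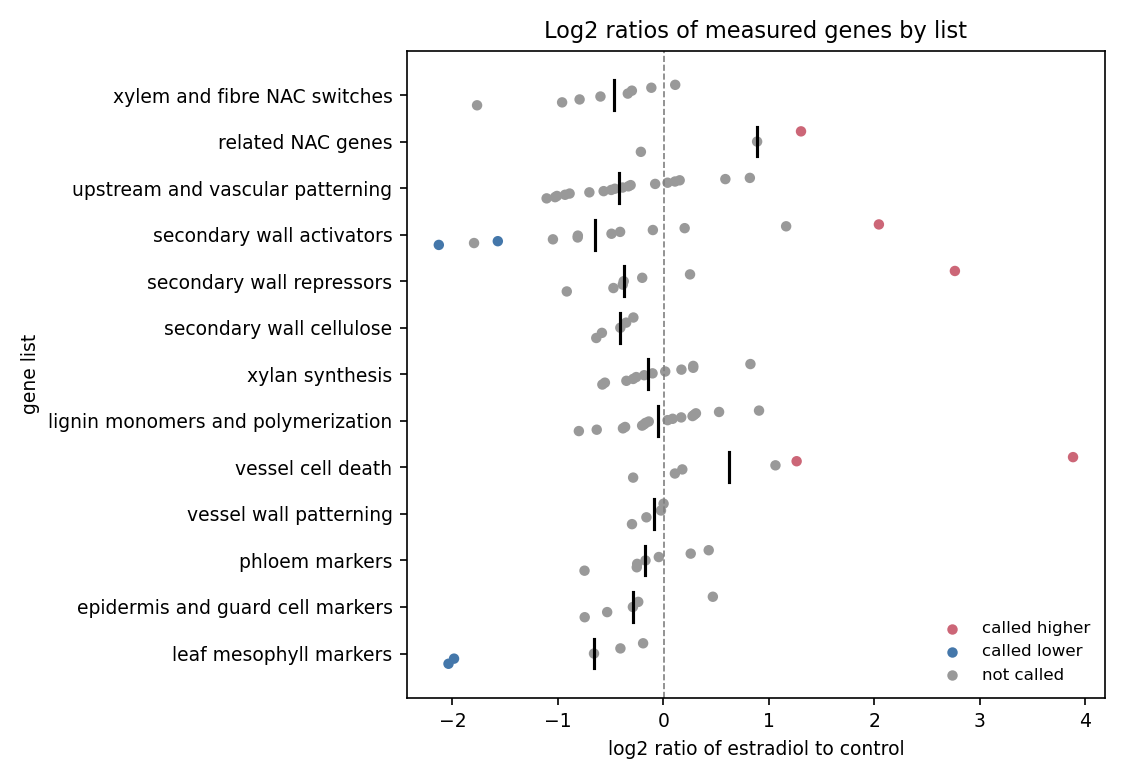
Log2 ratio of estradiol to control (x axis) for every measured gene of each list (1 library per group); coloured points were called higher or lower, black bars mark list medians, and the dashed line is the median of all measured genes. The NAC switches lie between -1.77 and 0.11 without a call, while BFN1 in the vessel cell death list reaches 3.88.

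Markers of other leaf cells bear on how these levels compare. None of 7 phloem markers was called, with SUC2, SEOR1 and APL at ratios of 0.839, 0.970 and 0.889. The same rule called 5.38% of all measured genes higher and 4.64% lower. The summed phloem level was 255 CPM in the control and 221 CPM with estradiol, of which SUC2 alone made up 183 and 153. The log2 ratio was below 0 in 5 of the 7, while NEN4 was at 1.35 (0.996 to 1.84) and NAC045 at 1.20 (0.897 to 1.60). None of 5 measured epidermis and guard cell markers was called, at 545 and 615 CPM, with CUT1, PDF2 and ATML1 at 1.38, 0.691 and 0.847. CUT1 alone made up 330 and 456 of these CPM, and the log2 ratio was below 0 in 4 of the 5 markers. GL1, a trichome gene that overlaps no other annotated locus, was listed at 0 in both libraries, and why was not tested. Of 5 mesophyll markers 2 were lower, CAB3 at 0.253 (0.246 to 0.260) and LHCB2.1 at 0.244 (0.225 to 0.263), while RCA was at 0.875 (0.868 to 0.882). RCA, which encodes Rubisco activase, had 114370 and 123327 counts, so both libraries hold the photosynthetic transcripts of the labelled leaf tissue. The summed mesophyll level was 8298 CPM in the control and 6046 CPM with estradiol. The part of these shifts in the ratios of the xylem NAC genes was not tested.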

How the data were processed

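The authors deposited raw gene counts, 1 table for each of the 2 libraries, with 33602 loci and 5 summary lines, which were kept out of library sizes. Reads marked ambiguous were 2.05% of the control and 1.91% of the estradiol library. HTSeq, FastQC, DESeq and TAIR10 are named, without versions, per the submitters' processing notes. The sources used here give no aligner, annotation release or strand setting. Groups follow the treatment label.

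Library sizes were scaled with TMM factors (0.993 and 1.01) from edgeR 4.0.16 in R 4.3.3. The estradiol to control ratio has an exact (Clopper-Pearson) 95% interval, conditional on the sum of both counts. This interval covers counting error only, and reads are not independent molecules. Log2 ratios use a prior count of 0.5 scaled to library size. Folds are not given where both counts are at most 3. Calls and intervals are rules of size, not tests. The call rule was checked only on simulated counts with counting error alone, and changes were placed in genes with more counts than several members. That check cannot cover variation between libraries or the finding of changes at such low counts.

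TPM uses the longest transcript of each locus in TAIR10.1, which has lengths for 32649 loci; no coordinates or sequences are given, as the notes name TAIR10. Similar copies were sought with BLAST 2.17.0: at least 90% identity over 100 bases was found for VND5 alone, with the overlapping locus AT1G08553.

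The members and 12 lists (113 genes) were chosen with earlier results of these data known. The text names all members, NAC1, all related NAC genes and, per list, called genes (up to 6) and uncalled genes with the most counts to make 3. CESA8, COBL4, MYB46, MYB83, KNAT7, RNS3, MC9, XSP1, IRX9, IRX10, FRA8, NEN4 and NAC045 were added after their values were seen. The laccase genes, genes called only at 1.5-fold and genes at 0 were added in the same way. So was the range of 47 to 150 counts. Alternatives were DESeq2 1.42.0 size factors, total counts, count minimums of 1 and 50, folds of 1.5 and 4, a prior count of 2, mean transcript length and an assumed coefficient of variation of 0.2.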

Additional observations from a re-analysis of the deposited data

How the results depend on the processing

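No paired analysis was possible because each group holds 1 library and no test was run. Of the 10 NAC genes none was called under DESeq2 size factors, total counts, either other count minimum, 4-fold or the assumed variation of 0.2. Several of these settings could not have added a call. A 4-fold threshold is stricter than 2-fold, and the assumed variation widens the intervals. The minimum of 50 counts left out VND1, VND2, VND6 and VND7. DESeq2 size factors and total counts moved the VND2 ratio towards 1, to 0.288 and 0.292. At 1.5-fold 1 gene, VND2, was called lower (ratio 0.287). The summed VND ratio ran from 0.656 to 0.731 over the settings tried, of which those leaving out genes were chosen after seeing the data. Over all genes 1809 were higher and 2009 lower at 1.5-fold, 468 and 161 at 4-fold, and 638 and 362 with the assumed variation, against 1090 and 940. In the 7 secondary wall and vessel lists the 2 lower calls became 1 under total counts (MYB43 lost). With a minimum of 50 counts they became 1 (MYB42 lost, and WRKY12 among the higher). They became 4 at 1.5-fold, 0 at 4-fold and 0 with the assumed variation. The 4 higher calls there became 6 at 1.5-fold (FAH1 and RNS3 gained), 1 at 4-fold (BFN1) and 2 with the assumed variation (BFN1 and WRKY12). The levels per length of the members stayed inside their counting intervals with mean transcript lengths. The median log2 ratio of the related NAC genes was 0.89 and became -0.21 without a count minimum, when genes with 2 counts enter it. Variation between libraries could not be estimated, and counts of 17 to 80 limit every statement on the switches.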
